A study of Homo sapiens with 8 samples.

Results

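The sirtuins SIRT1 to SIRT7 were followed in DND41, an established line of human T-cell acute lymphoblastic leukemia, after a hairpin against SIRT1 was expressed. The members were identified by gene symbol, but the family was chosen with earlier results of these data known. These symbols mark 7 of the 18133 rows of the deposited table. All 7 were among the 13885 genes tested, those averaging 10 or more normalized counts. Every library came from cells given doxycycline for 72 h, which induced either a control hairpin (2 libraries, A and C) or a hairpin against SIRT1, labelled sh1 or sh3 (3 libraries each, A to C). The control cells thus also received doxycycline and a hairpin. No label states the hairpin sequences, how the inducible cells were made or whether each line is 1 clone. The library sh3 C is an sh3 library by its title and genotype, while its description names the control hairpin. It was analysed as sh3. The labels give triplicate plating and name no independent transductions. All p-values therefore reflect only how far these plated samples vary, a spread that may be technical.

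Sirtuins are enzymes that use NAD as a co-substrate to remove acetyl and other acyl groups from lysines. SIRT1, SIRT6 and SIRT7 are found mainly in the nucleus, SIRT7 with a concentration in the nucleolus, SIRT2 mainly in the cytoplasm, and SIRT3, SIRT4 and SIRT5 in mitochondria. Because all of them draw on NAD and some share substrates such as histones, a frequent question in a knockdown of SIRT1 is whether the messenger RNA of the other members moves with it.

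The summed normalized counts of a library lay between 33087800 and 34072700, with 326 to 544 rows at 0. The 12 T-cell and T-ALL markers present in the table, of 14 listed, summed to 158945 to 159302 in the controls, 147599 to 154340 with sh1 and 143461 to 146649 with sh3. RAG1 alone, at 57887 to 74851, made up much of these sums, which therefore weigh the markers unequally. CD3E was between 18528 and 26148, CD2 at most 63.1 and DNTT at most 65.7. Markers of other cells were near the floor: 4 myeloid genes summed to at most 32.99, 2 erythroid genes to at most 19.97 and 5 genes of adherent cells to at most 77.9. Of 3 B-cell markers CD79A stood at 17609 to 25708, while PAX5 was at most 5.49. The B-cell sum was 24018 to 25738.5 in the controls, 17632 to 19310 with sh1 and 23398 to 24802 with sh3. The part of these shifts in the results that follow was not tested. In these bulk RNA samples fewer cells with a transcript and less of it per cell cannot be told apart.

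The genes lie on 6 chromosomes (GRCh38, GENCODE release 29). SIRT1 is at chromosome 10, 67884669 to 67918390, plus strand. SIRT2 (38878555 to 38899862) and SIRT6 (4174109 to 4182604) are both on the minus strand of chromosome 19. SIRT3 is on chromosome 11, 215458 to 236931, minus strand, and SIRT4 on chromosome 12, 120302316 to 120313249, plus strand. SIRT5 is on chromosome 6, 13574529 to 13615158, plus strand, and SIRT7 on chromosome 17, 81911939 to 81921323, minus strand. Exons of SIRT7 share 105 bases with MAFG on the same strand, those of SIRT3 share 316 bases with PSMD13 on the opposite strand, and those of SIRT2 share 40 bases with NFKBIB on the opposite strand. SIRT5 overlaps an antisense gene, AL441883.1, by 1045 exonic bases. The libraries were prepared strand-specifically, but no source states whether quantification made use of it, so that reads in these stretches cannot be assigned with certainty.

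Between the members, levels can be compared only per length. In the control libraries SIRT1 was at 403 ± 27.1 normalized counts per kb of exon (SD, n = 2, the union of all annotated exons) and SIRT6 at 397 ± 31.3. Their ranges overlapped. SIRT7 followed at 237 ± 13.9, SIRT3 at 138 ± 14.4, SIRT2 at 115 ± 0.599, SIRT5 at 101 ± 8.13 and SIRT4 at 67.3 ± 10.95 normalized counts per kb. From SIRT6 downward each gene's control libraries lay above those of the next in this order. Among the 13769 tested genes with a length, SIRT1 stood at the 69.5th percentile, SIRT7 at the 55.9th and SIRT4 at the 31.6th. The nuclear members were therefore the most abundant per kb and the mitochondrial SIRT4 the least.

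The order depends on the length used. Divided by the longest annotated transcript, SIRT6 led with 673 ± 53.2 normalized counts per kb in the controls (SD, n = 2). SIRT1 (448 ± 30.1) and SIRT7 (424 ± 24.8) then overlapped, and so did SIRT2 (151 ± 0.787) and SIRT5 (149.8 ± 12.1). SIRT3 lay between these pairs at 273 ± 28.5, and SIRT4 was again lowest at 67.6 ± 10.998. With either length the 3 nuclear genes held the top 3 places in the controls and SIRT4 held the last.

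**Figure D1:**
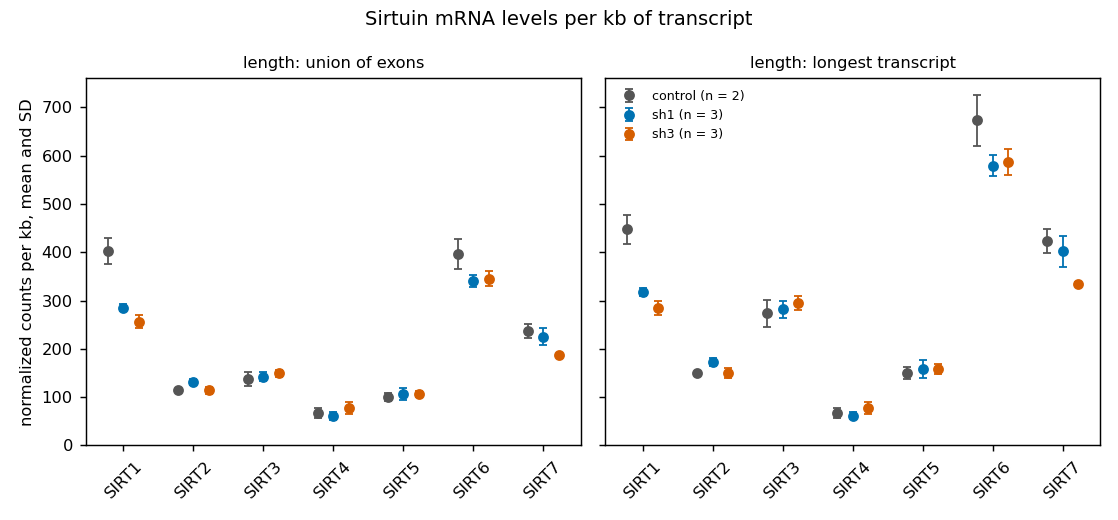
Mean and SD of normalized counts per kb for each sirtuin (vertical axes, linear, from 0) in control, sh1 and sh3 libraries, with length taken as the union of exons (left) or as the longest transcript (right). SIRT1 falls from 403 in the controls to 286 with sh1 and 256 with sh3 per kb of exon, below SIRT6 at 341 and 345, while SIRT4 is lowest in every group.

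With a SIRT1 hairpin the order at the top changed. Per kb of exon SIRT6 was first with sh1 (341 ± 12.8, SD, n = 3) and with sh3 (345 ± 15.9), and SIRT1 second (286 ± 8.01 and 256 ± 13.2), with no overlap between the genes in either group. Per kb of longest transcript SIRT1 fell behind SIRT7 with sh1 (317 ± 8.91 against 402 ± 31.9), and with sh3 SIRT3 also stood above it (296 ± 14.6 against 285 ± 14.7, with overlapping ranges). The share of SIRT1 in the summed level of the family per kb of exon was 27.6% ± 1.09 in the controls (SD, n = 2), 22.1% ± 1.01 for sh1 and 20.7% ± 0.557 for sh3 (SD, n = 3 each). The summed level itself was 1457 ± 40.4 normalized counts per kb in the controls, 1293 ± 28.99 with sh1 and 1235 ± 36.7 with sh3. The other 6 members without SIRT1 summed to 1055 ± 13.3, 1008 ± 34.4 and 979 ± 25.0, and these sums in all 6 hairpin libraries (952 to 1030.2) were below both controls (1045 and 1064). In control, sh1 and sh3 order, SIRT6 (397, 341 and 345) and SIRT7 (237, 225 and 187) averaged lower with both hairpins. SIRT3 (138, 142 and 149) and SIRT5 (101, 107 and 106) averaged higher with both. SIRT2 (115, 132 and 114) and SIRT4 (67.3, 61.2 and 77.4) differed in direction between the hairpins. Among single genes, 23.2% of all tested also had no overlap between hairpin libraries and controls. The sums were not tested.

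SIRT1, the nuclear deacetylase against which the hairpins were directed, checks the labels. It was at 1745 normalized counts in control A and 1919.5 in control C. With sh1 it was at 1259, 1312 and 1329 in libraries A, B and C, and with sh3 at 1099, 1217 and 1179. All 6 hairpin libraries lay below both controls, every sh3 library lay below every sh1 library, and sh3 C lay between the other sh3 libraries. The log2 difference from control was -0.57 ± 0.063 over both hairpins (SE, 95% interval -0.71 to -0.44, limma adjusted p = 0.00030), -0.49 ± 0.070 with sh1 (adjusted p = 0.0029) and -0.65 ± 0.070 with sh3 (adjusted p = 0.00014). The group means were 70.9% of the control mean with sh1 and 63.6% with sh3. Without control C the difference with sh1 was -0.43 and its adjusted p 0.0504, which no longer passes the threshold. Between sh1 and sh3 SIRT1 differed by 0.16 (95% interval 0.021 to 0.30, adjusted p = 0.14), a difference that was not called although the libraries did not overlap.

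Across the family 1 of 7 members, SIRT1, was called at an adjusted p under 0.05 over both hairpins, against 12.7% of all 13885 genes tested (6.55% higher and 6.19% lower). Of all calls 51.4% were higher, a share that was 60.7% when libraries were scaled to their totals. The hairpin libraries did not overlap the controls in 2 of 7, SIRT1 and SIRT6, against 23.2% of all genes. With sh1 alone 1 of 7 was called (background 6.31%) and 3 did not overlap (38.2%). With sh3 alone 2 of 7 were called, SIRT1 and SIRT7 (18.6%), and 3 did not overlap (49.8%). Between sh1 and sh3 1 of 7 was called, SIRT7 (11.4%), and 3 did not overlap (30.5%). The 7 genes are too few for these counts to be set apart from the background, and SIRT1, the target, is among those called in each comparison with control. The comparisons of sh1 and of sh3 share the same 2 controls. The median log2 difference of the 7 members over both hairpins was 0.033, beside -0.0022 for all genes tested.

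**Figure D2:**
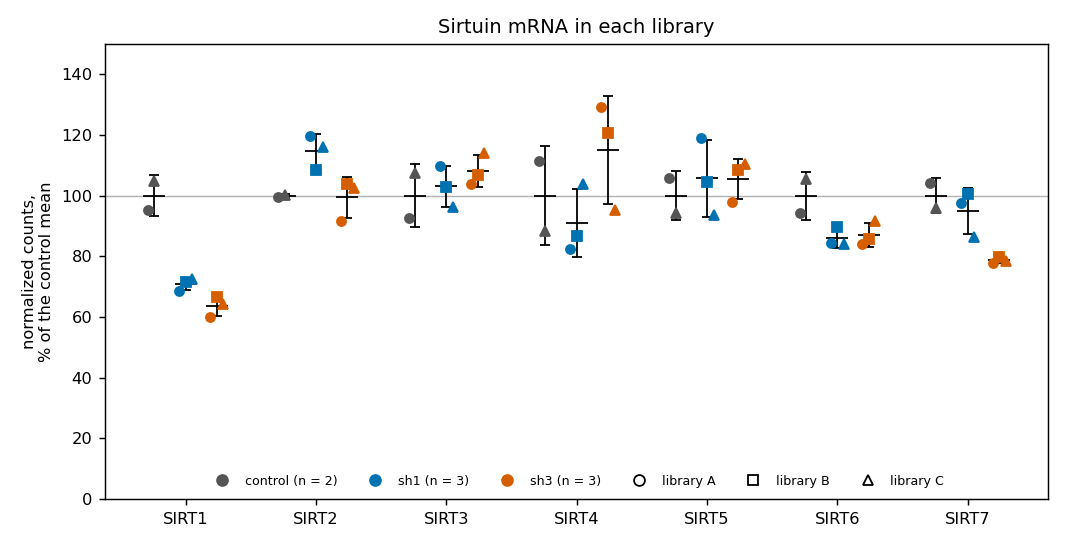
Normalized counts of each sirtuin in each library as a percent of that gene's control mean (vertical axis, linear, from 0), with black bars for the group mean and SD. SIRT1 lies between 60.0% and 72.5% in the 6 hairpin libraries, SIRT7 is near 79% in the 3 sh3 libraries, and the 5 other members lie between 82.3% and 129%.

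SIRT7, the nucleolar member tied to ribosomal DNA transcription and to deacetylation of histone H3, was the only other member called in a comparison. It was at 1520.0 and 1399 normalized counts in controls A and C, at 1423, 1469 and 1260.3 with sh1, and at 1137, 1167 and 1147 with sh3. The sh3 libraries were tightly grouped (coefficient of variation 1.32%) and lay below all sh1 and control libraries, while sh1 overlapped the controls. The log2 difference with sh3 was -0.34 ± 0.076 (SE, 95% interval -0.51 to -0.17, adjusted p = 0.011), a level of 78.8% of the control mean. With sh1 it was -0.078 ± 0.076 (95% interval -0.25 to 0.089, adjusted p = 0.60), and over both hairpins -0.21 ± 0.068 (adjusted p = 0.065). The test of sh1 against sh3 gave 0.26 ± 0.068 (95% interval 0.11 to 0.41, adjusted p = 0.028), with all 3 sh1 libraries above all 3 sh3 libraries. The call with sh3 ended without control A (-0.28, adjusted p = 0.084). That between the hairpins ended without sh1 A, sh1 B, sh3 A, sh3 B or sh3 C, with differences of 0.22 to 0.27 and adjusted p between 0.064 and 0.11.

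SIRT6, the nuclear deacetylase of histone H3 that takes part in DNA repair and in repression of glycolytic genes, was slightly lower with both hairpins but missed the threshold. Control A was at 1043 and control C at 1167 normalized counts. The sh1 libraries were at 932, 992 and 928 and the sh3 libraries at 927, 947 and 1012. All 6 lay below both controls, the nearest pair being sh3 C and control A. The log2 difference was -0.21 ± 0.069 over both hairpins (SE, 95% interval -0.36 to -0.057, adjusted p = 0.070), -0.22 with sh1 (adjusted p = 0.13) and -0.20 with sh3 (adjusted p = 0.096). The hairpins differed from each other by -0.017 (95% interval -0.17 to 0.13, adjusted p = 0.91).

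SIRT2, the cytoplasmic tubulin deacetylase, was not called in any of the 4 comparisons. It was at 712 and 717 normalized counts in the controls, at 855, 774 and 829 with sh1, and at 656, 742 and 733 with sh3. The sh1 libraries were above all the others, and the sh3 libraries lay on both sides of the controls. The log2 difference with sh1 was 0.20 ± 0.083 (SE, 95% interval 0.014 to 0.38, adjusted p = 0.19) and with sh3 -0.011 ± 0.083 (adjusted p = 0.95). The difference of sh1 from sh3 was 0.21 ± 0.074 (95% interval 0.044 to 0.37, adjusted p = 0.099).

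**Figure D3:**
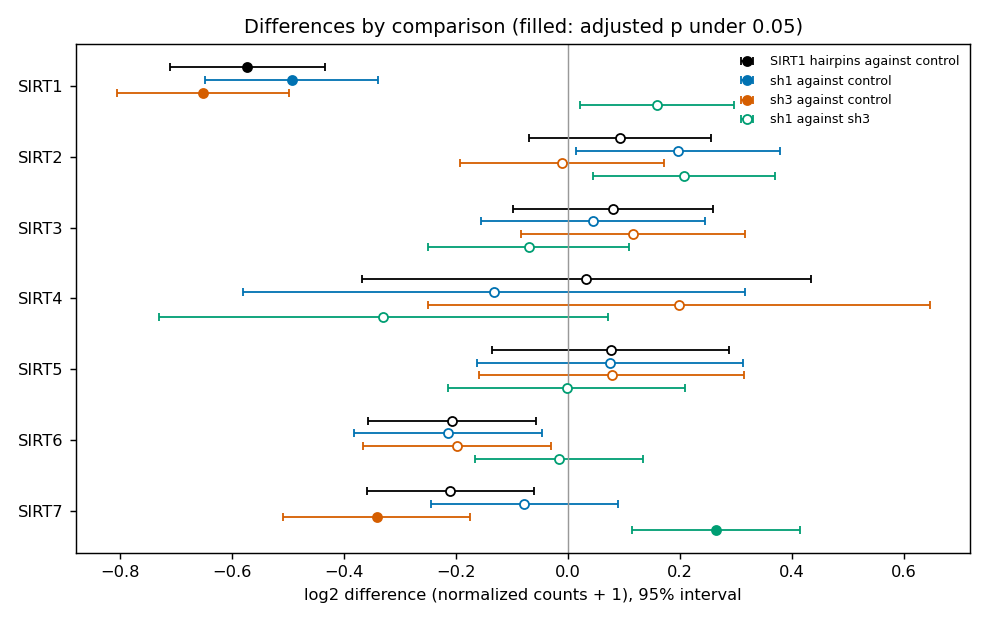
Log2 differences of each sirtuin with 95% intervals from the limma model (horizontal axis) for both hairpins against control, sh1 against control, sh3 against control and sh1 against sh3, with filled points at an adjusted p under 0.05. Filled points appear for SIRT1 in the 3 comparisons with control and for SIRT7 with sh3 (-0.34) and between the hairpins (0.26), while the widest intervals belong to SIRT4.

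Of the mitochondrial members none was called in any of the 4 comparisons. SIRT3, the main mitochondrial deacetylase, was at 665 and 771 normalized counts in the controls, 788, 739 and 692 with sh1 and 744, 766 and 819 with sh3. The groups overlapped, and the difference over both hairpins was 0.080 on the log2 scale (95% interval -0.099 to 0.26, adjusted p = 0.57). SIRT5, which removes succinyl, malonyl and glutaryl groups, was at 694 and 619 in the controls, 781, 686 and 614 with sh1 and 642, 711 and 724 with sh3. Its difference was 0.076 (95% interval -0.14 to 0.29, adjusted p = 0.66), again with overlap. The intervals of these genes exclude a fall of the size seen for SIRT1.

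SIRT4, a mitochondrial regulator of glutamate dehydrogenase, was the member with the fewest counts. It was at 91.7 and 72.8 normalized counts in the controls, 67.7, 71.4 and 85.3 with sh1 and 106, 99.2 and 78.3 with sh3. All 3 groups overlapped, and their coefficients of variation were between 12.4% and 16.3%. The difference over both hairpins was 0.033 (95% interval -0.37 to 0.43, adjusted p = 0.93), and that of sh1 from sh3 was -0.33 (95% interval -0.73 to 0.071, adjusted p = 0.29). These intervals are the widest of the family, so that changes of the size seen for SIRT6 or SIRT7 were not detectable for SIRT4.

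**Figure D4:**
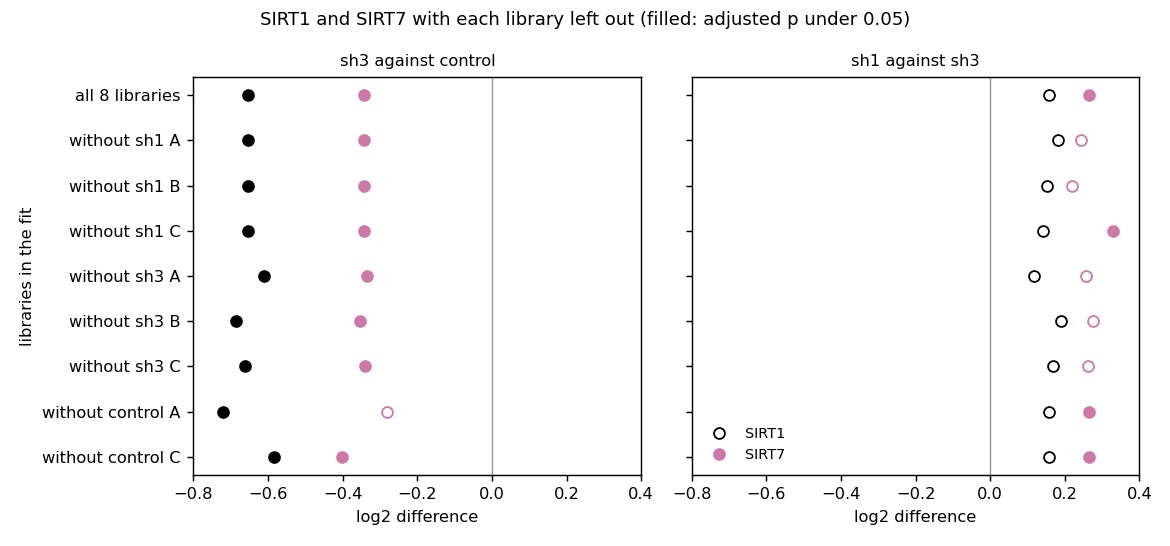
Log2 differences of SIRT1 and SIRT7 (horizontal axes) for sh3 against control (left) and sh1 against sh3 (right), with all 8 libraries and with each library left out in turn, filled where the adjusted p was under 0.05. With sh3 SIRT1 is called in every row and SIRT7 in all but the row without control A, and between the hairpins SIRT7 keeps its call in 3 of the 8 rows with a library left out.

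The nearest protein-coding genes on each side of every member were examined because exons overlap or starts lie close together at several of these loci. Of the 14 neighbours 12 are in the table. PCYT2 encodes the rate-limiting enzyme of the CDP-ethanolamine pathway and lies 475 bases from SIRT7 on the same strand. PCYT2 alone of the 12 was called over both hairpins, where 12.7% of all genes were called. Its controls averaged 1613 ± 160.1 normalized counts (SD, n = 2), beside 1317 ± 85.5 for sh1 and 1085 ± 65.2 for sh3 (SD, n = 3 each). Its log2 difference was -0.57 with sh3 (adjusted p = 0.0011), -0.29 with sh1 (adjusted p = 0.069) and 0.28 between sh1 and sh3 (adjusted p = 0.035), the same order of groups as for SIRT7. Over both hairpins it was -0.43 (adjusted p = 0.0047), and -0.33 (adjusted p = 0.10) without control C. The call of PCYT2 between the hairpins ended without sh1 A, sh1 C, sh3 A or sh3 B (adjusted p up to 0.14).

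The other neighbours of SIRT7 and of SIRT3 gave no call. MAFG, a small MAF transcription factor on the other side of SIRT7 whose gene overlaps it by 3054 bases, was at 2102 ± 109 in the controls (SD, n = 2), 2247 ± 243 with sh1 and 2058 ± 19.2 with sh3, with a log2 difference of -0.030 with sh3 (adjusted p = 0.84). PSMD13, a proteasome subunit gene head to head with SIRT3 with starts 385 bases apart, differed by -0.095 over both hairpins (adjusted p = 0.24). Beside SIRT1, HERC4 differed by 0.15 (adjusted p = 0.19) and DNAJC12 by 0.0090 (adjusted p = 0.97) over both hairpins, and neither was called. DNAJC12 did differ between sh1 and sh3 (-0.72, adjusted p = 0.0030). GFOD1, next to SIRT5, was called with sh3 (0.40, adjusted p = 0.013) but not once control C was left out (adjusted p = 0.13). Over both hairpins GFOD1 differed by 0.27 (adjusted p = 0.051), and it passed the threshold when libraries were scaled to their totals (0.29, adjusted p = 0.041) or quantile normalized (0.30, adjusted p = 0.034).

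Upstream sequence was available for 6 of the members (RefSeq, GRCh38.p14), in 9 windows from 250 bases before to 50 bases after an annotated start, and SIRT7 had no entry. The window of SIRT1 is shown because SIRT1 is the targeted member and its window alone among the 9 holds the motif searched, which was chosen with the values known. The motif CACGTG, the E-box bound by MYC and related factors, reads the same on both strands. It occurs 2 times in the SIRT1 window, beginning 123 and 44 bases before the RefSeq start, and in none of the 8 windows of the other members. The RefSeq start lies upstream of the GENCODE start of SIRT1 given above (67884669). Among 35116 promoters of this length 7.26% hold it at least once and 0.664% at least 2 times. The 250 bases before the RefSeq start of SIRT1, on the plus strand, chr10:67884406-67884655, are printed 5′ to 3′ with both E-boxes in capitals.

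SIRT1 upstream: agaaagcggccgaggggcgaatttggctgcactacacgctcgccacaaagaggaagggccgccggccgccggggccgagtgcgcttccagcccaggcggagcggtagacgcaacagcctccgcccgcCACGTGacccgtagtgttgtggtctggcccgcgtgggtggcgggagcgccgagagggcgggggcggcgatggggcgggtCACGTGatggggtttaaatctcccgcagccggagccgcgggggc

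MYC averaged 13433 ± 1765 normalized counts in control libraries (SD, n = 2), 10542 ± 408 in sh1 and 10252 ± 846 in sh3 (SD, n = 3 each). This was a log2 difference of -0.37 over both hairpins (adjusted p = 0.0093) that was not called without control C (-0.23, adjusted p = 0.16). A match of letters is a description of the sequence. No binding of MYC was measured here, and the part of MYC in the level of SIRT1 was not tested. The GC content of the SIRT1 window was 72.7%, beside a median of 58.7% over all promoters, and the windows of the other members ranged from 42.3% (SIRT4) to 76.3% (SIRT5).

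The gene lists from here on were chosen with earlier results of these data known. Their counts of calls beside the shares of all genes are therefore descriptive. Some lists share genes, so that the same call can be counted again. A list of genes named as regulators of SIRT1, whether of the gene or of the protein, held 17, of which 16 were tested. Over both hairpins 2 rose and 1 fell, beside 6.55% of all genes called higher and 6.19% called lower, with a median log2 difference of 0.058. SENP1, a SUMO protease that acts on SIRT1, rose by 0.20 (adjusted p = 0.014), its control mean being 2066 ± 10.4 normalized counts (SD, n = 2) against 2413 ± 34.9 for sh1 and 2347 ± 30.1 for sh3 (SD, n = 3 each). RPS19BP1, which encodes the SIRT1 activator AROS, fell by 0.28 (adjusted p = 0.027), from 2083 ± 92.99 to 1771 ± 189.4 and 1656 ± 52.8. PRKAA1, a catalytic subunit of AMP-activated kinase, rose by 0.18 (adjusted p = 0.033), with 0.25 for sh1 (adjusted p = 0.025) and 0.12 for sh3 (adjusted p = 0.16). CCAR2, the inhibitor known as DBC1, was chosen after its value was seen and differed by -0.047 (adjusted p = 0.75).

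Among genes of nuclear proteins listed as substrates or partners of SIRT1, 2 of 34 tested rose and 4 fell over both hairpins, beside the same 6.55% and 6.19% of all genes, with a median log2 difference of 0.059. SREBF1, the gene of a lipogenic transcription factor, fell by 0.63 (adjusted p = 0.00039). It was at 2692 ± 230.1 normalized counts in control libraries (SD, n = 2), 1641 ± 61.2 in sh1 and 1852 ± 162 in sh3 (SD, n = 3 each). TCF7, a T-cell transcription factor gene, fell by 1.47 (adjusted p = 0.0018). It fell by 2.12 with sh3 (adjusted p = 0.00021), its difference with sh1 was -0.83 (adjusted p = 0.069), and the hairpins differed (adjusted p = 0.0027). NBN, of the MRN DNA repair complex, rose by 0.25 (adjusted p = 0.0059). FOXO3, chosen after its value was seen, differed by -0.048 (adjusted p = 0.59).

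Of 15 genes listed for SIRT2, 0 rose and 4 fell over both hairpins, beside 6.55% and 6.19% of all genes (median -0.035), among them the glycolytic gene PGAM1 (-0.20, adjusted p = 0.010) and the tubulin gene TUBA1A (-0.26, adjusted p = 0.020). This list also held CDH1, the gene of E-cadherin, through a name it shares with the cell cycle regulator FZR1. PGAM1 fell by 0.34 with sh3 (adjusted p = 0.00079), while its difference with sh1 was -0.072 (adjusted p = 0.41). TUBA1A fell by 0.43 with sh3 (adjusted p = 0.0018), while its difference with sh1 was -0.087 (adjusted p = 0.50). Both differed between the hairpins, with adjusted p of 0.0020 for PGAM1 and 0.0044 for TUBA1A. Of 29 genes listed for SIRT3, SIRT4 and SIRT5, 1 rose and 5 fell (median -0.030). HMGCS1, a cytosolic enzyme of cholesterol synthesis that the list holds beside the mitochondrial ones, fell by 0.42 (adjusted p = 0.00064), and SHMT2, the mitochondrial serine hydroxymethyltransferase, fell by 0.21 (adjusted p = 0.0073). SHMT2 fell by 0.37 with sh1 (adjusted p = 0.00096), its difference with sh3 was -0.046 (adjusted p = 0.53), and the hairpins differed (adjusted p = 0.00035). SDHA, of respiratory complex II, rose by 0.22 (adjusted p = 0.0089).

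Partners of SIRT6 and SIRT7 were also counted over both hairpins, beside 6.55% of all genes called higher and 6.19% called lower. Of 11 genes listed for SIRT6, 1 rose, the corepressor gene TRIM28 (0.19, adjusted p = 0.044), and 1 fell, MYC. MYC is also on the list of nuclear proteins for SIRT1 and was counted there. Of 15 genes listed for SIRT7, 0 rose and 2 fell over both hairpins. These were the nucleolar gene NOLC1 (-0.20, adjusted p = 0.013) and UBTF, which encodes the upstream binding factor of RNA polymerase I (-0.16, adjusted p = 0.040). UBTF was not called when libraries were scaled to their totals (-0.14, adjusted p = 0.070). With sh3 4 of these 15 fell and 1 rose, where 18.6% of all genes were called, and with sh1 0 fell and 1 rose, where 6.31% were. NOLC1 differed from control by -0.34 with sh3 (adjusted p = 0.00077) and by -0.052 with sh1 (adjusted p = 0.57). It differed between sh1 and sh3 by 0.29 (adjusted p = 0.0012) and UBTF by 0.068 (adjusted p = 0.38).

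The list for synthesis of NAD, the co-substrate of all sirtuins, held some genes besides the enzymes that make it. Of its 14 tested genes 2 rose and 0 fell over both hairpins, where 12.7% of all genes were called. The median of the list was -0.043. NAMPT, the rate-limiting enzyme of NAD salvage, rose by 0.25 (adjusted p = 0.0093), with 2592 ± 128 normalized counts in control libraries (SD, n = 2), 3052 ± 82.5 in sh1 and 3092 ± 93.2 in sh3 (SD, n = 3 each). The nuclear NMNAT1 rose by 0.31 (adjusted p = 0.035). Among 15 other consumers of NAD 1 rose, PARP2 (0.40, adjusted p = 0.0015), and 1 fell, CD38 (-0.24, adjusted p = 0.013). CD38 fell with sh1 (-0.39, adjusted p = 0.0040), its difference with sh3 was -0.10 (adjusted p = 0.27), and the hairpins differed (adjusted p = 0.0047). With quantile normalization CD38 was at -0.16 over both hairpins and not called (adjusted p = 0.060).

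Many of these calls depended on control C, as did most calls over all genes. Of the 20 genes taken by rule from the lists 15 were not called without control C (adjusted p between 0.064 and 0.42) and 6 were not called without control A (adjusted p between 0.059 and 0.088). In all 16 of the 20 lost the call when some library was left out, and SREBF1, TCF7, HMGCS1 and PARP2 kept it in each of the 8 cases. With the replicate letter as a block TRIM28, UBTF and NMNAT1 were not called. Without the trend in the variance prior RPS19BP1, PRKAA1, PGAM1, TUBA1A, SDHA, MYC, TRIM28, NOLC1, UBTF and CD38 were not called.

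The genes whose log2 values followed each sirtuin most closely over the 8 libraries were sought among genes averaging 50 or more normalized counts, as a description. The libraries fall into 3 groups, so that a gene with a like order of group means can score high. For SIRT3, SIRT4 and SIRT5, whose groups overlapped, variation between libraries within groups also enters. These genes are the extremes of 11398. For SIRT1 they were UBL4A (Pearson r = 0.992), AHCY (0.987), which encodes the enzyme that hydrolyses S-adenosylhomocysteine, and ATP6V0E2 (0.986), a subunit gene of the vacuolar proton pump. UBL4A, AHCY and ATP6V0E2 differed from control by -0.24, -0.20 and -0.30 over both hairpins. SIRT6 was followed by PSME3 (0.986), a proteasome activator gene, BSG (0.979) and EIF5A (0.974), and SIRT7 by TAGAP (0.983), TAF6L (0.982) and GXYLT2 (0.976). SIRT2 was followed by TMEM62 (0.954), MTERF2 (0.948) and UCKL1 (0.945), and SIRT3 by PEX10 (0.953), TRMT10B (0.933) and NR4A1 (0.929). NR4A1 had few counts, 28.2 ± 20.2 in the controls (SD), 42.6 ± 16.2 with sh1 and 73.5 ± 17.1 with sh3. Only its sh3 mean was above the minimum of 50. For SIRT4 the genes were ACAD11 (0.981), TPM2 (0.965) and SLC15A2 (0.931), and for SIRT5 AP5B1 (0.965), OTUD5 (0.955) and ERC1 (0.92).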

How the data were processed

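RNA from 8 libraries of DND41 cells was sequenced after strand-specific library preparation, per the labels' protocols. The deposited values are a signal in DESeq-normalized counts per gene symbol, made with kallisto 0.44.0 and DESeq on hg38, per the submitters' processing notes. Which annotation was used, how transcripts were summed and whether rows were filtered is not given in these sources. Because the values are fractional, no count test was run, and read depth is unknown. Counts that kallisto divides between overlapping transcripts, and lengths that differ between isoforms, limit the levels per kb.

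From these values log2(value + 1) was fitted for 13885 genes (mean of 10 or more) in limma 3.58.1 (R 4.3.3), with 3 group means, 5 residual degrees of freedom and a variance prior that followed the mean. Fold changes are on that scale. Tests were two-sided, with Benjamini-Hochberg adjustment over all genes tested and a threshold of 0.05. The procedure was tested on simulated data, with limits set after a first run had missed many changed genes of low mean; the fit was not altered, and genes with a mean under 50 are poorly covered. Groups came from the titles. Of 18133 symbols 18031 matched GENCODE release 29. The members and lists were chosen with earlier results of these data known. Named genes were all 7 members, from each list the 3 called genes with the smallest p, the nearest coding gene on each side of a member, and the 3 genes with the highest Pearson r; a few genes are counted but not reported here by name. Alternatives changed the filter, pseudocount, scaling, variance prior, replicate block, grouping, length and the libraries used.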

Additional observations from a re-analysis of the deposited data

Results flagged for a closer look

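SIRT7 differed between the hairpin arms by 0.26 on the log2 scale, sh1 above sh3 (limma adjusted p = 0.028), and all 3 sh1 libraries lay above all 3 sh3 libraries. It drew attention because the test of the difference itself passed the threshold, while its interval with sh1 against control included 0. The call held without sh1 C, control A or control C and was lost without any of the other 5 libraries. The cause of the difference between the hairpins was not tested.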

How the results depend on the processing

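The fall of SIRT1 over both hairpins kept its direction and call under all 18 alternatives, with log2 differences between -0.64 and -0.50 and adjusted p up to 0.013. SIRT1 remained the 1 member called there in each. Leaving out each library gave between 0 and 1 members called with sh1, between 1 and 2 with sh3 and between 0 and 1 for sh1 against sh3. Without the trend in the variance prior 0 members were called for sh1 against sh3. SIRT6 over both hairpins ranged from -0.29 to -0.13 with adjusted p of at least 0.061, and SIRT7 from -0.27 to -0.15 with adjusted p of at least 0.056. No strong pairing by the letters of the titles was seen. Deviations from the group mean correlated between -0.062 and 0.058 across genes for same-letter libraries, and between -0.058 and 0.060 for other letters. The deviations of the 2 controls mirror each other by construction. Each correlation with a control therefore recurs with the opposite sign, so that the 2 ranges are not independent. With the letter as a replicate block SIRT1 differed by -0.59 over both hairpins (adjusted p = 0.00091) and no member's call changed.

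Counts of all genes called moved more. Without the trend they were 744 over both hairpins (1768 as reported), 236 with sh1 (876), 1531 with sh3 (2576) and 968 between the hairpins (1589). As 2 groups the first was 394, and with the block the second was 549. Leaving out each library gave 339 to 1892, 160 to 784, 854 to 2926 and 926 to 1765. With the longest transcript as length the control levels per kb were 448 for SIRT1, 151 for SIRT2, 273 for SIRT3, 149.8 for SIRT5, 673 for SIRT6 and 424 for SIRT7. Where 1 control is left, it is assumed to vary like the other groups.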
